A study of Mus musculus with 6 samples.

Results

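The Hox genes encode homeodomain transcription factors and lie in 4 clusters, Hoxa, Hoxb, Hoxc and Hoxd, on mouse chromosomes 6, 11, 15 and 2. Within a cluster the genes are numbered from 1 to 13 by descent, so that genes with the same number in different clusters are paralogs, and low numbers are switched on earlier and further towards the head of the embryo than high numbers. They are best known for giving identity to body segments along the head to tail axis. In the urogenital tract, genes with high numbers pattern the ducts, among them the mesonephric duct that forms the epididymis. Hox proteins bind DNA with TALE partners of the Pbx and Meis families, Polycomb proteins keep the clusters silent, and retinoic acid opens them from the low-number end.

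Hox transcripts were measured in RNA of whole testes from male mice at postnatal day 9, on 1-colour NimbleGen arrays with 1 sample each. The 3 Dmrt1 KO samples carried the label Cre-positive and the 3 control samples Cre-negative, all in a line called NGN-cre, and the series design calls the targeting conditional. The sources used here do not state the Dmrt1 allele, the cells in which this Cre acts or the strain, and nothing says whether each sample came from 1 animal. Since Cre follows genotype, its own effect and that of losing Dmrt1 cannot be told apart. Dmrt1 is a transcription factor gene of Sertoli and germ cells. Members were all rows whose RefSeq accession maps to a symbol made of Hox, a cluster letter and a number from 1 to 13. This gave 38 genes of 17277 named genes in a table of 25631 rows. There were 11 in Hoxa, 10 in Hoxb, 9 in Hoxc and 8 in Hoxd, each with 1 row, so no row had to be chosen by its mean log2 intensity over all 6 arrays, the measured value that the rule would have used. Hoxd8 was not analysed here.

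Levels below are log2 of the deposited intensity, and each difference is the mean of the 3 Dmrt1 KO arrays minus the mean of the 3 control arrays with limma's moderated standard error (SE). An array level depends on the probe as well as on the transcript. Levels of different genes were therefore set against each other only to call rows dim or bright and to choose rows to show. As a guide to background the 95th percentile of the mean level of 1064 olfactory receptor rows was taken, which was 7.19. Of the 38 Hox genes 15 had both group means under this guide, 4 had 1 group mean under it and 19 had neither. Since RNA came from whole testes, fewer cells of a type and less RNA per cell cannot be told apart.

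The targeted gene was lower in the samples labelled as its knockout. Dmrt1 had 11.98, 12.08 and 12.27 in Dmrt1 KO replicates 1, 2 and 3, against 13.59, 13.49 and 13.21 in control replicates 1, 2 and 3, with an adjusted p of 0.124 in limma. Dmrt1 KO replicate 3 stood apart from the rest: its Pearson's r with other arrays, across rows that are not independent, ran from 0.966 to 0.973, against 0.978 to 0.988 for all other pairs. Values without it are given below for the Hox genes in which it stood apart. Sertoli cell markers (11 of 12 listed were measured) included Dmrt1 itself. They summed to an intensity of 130410 to 163139 in Dmrt1 KO arrays and 159769 to 161759 in control arrays. The 8 germ cell markers summed to 120496 to 144498 in Dmrt1 KO arrays and 135477 to 152336 in control arrays. All of these markers were above the guide. Sums hide single genes: 1 Sertoli cell marker was higher and 3 were lower without overlap, and 2 germ cell markers were higher and 2 lower. That was so in 6.8% (higher) and 8.54% (lower) of all rows. The lowest difference was -1.32 among Sertoli cell markers, that of Dmrt1, and -1.63 among germ cell markers.

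Promoter sequence is shown first for the Hox genes on which the results turn and which are in the RefSeq promoter table (build GRCm38.p6). Each is the 250 bases before the annotated start, 5′ to 3′ on the strand of the gene. Capitals mark TGATNNAT, the form of a joint Pbx and Hox binding site, and TGATTG, which overlaps it in part, both searched on either strand. Hoxb1, Hoxa2 and Hoxd4 are shown as the genes above the guide that were higher without overlap and whose promoters are listed, Hoxd11 (both of its annotated starts) as a separated gene under the guide, and Hoxd9 as a gene whose groups did not separate.
Hoxb1, chr11:96365508-96365757, plus strand: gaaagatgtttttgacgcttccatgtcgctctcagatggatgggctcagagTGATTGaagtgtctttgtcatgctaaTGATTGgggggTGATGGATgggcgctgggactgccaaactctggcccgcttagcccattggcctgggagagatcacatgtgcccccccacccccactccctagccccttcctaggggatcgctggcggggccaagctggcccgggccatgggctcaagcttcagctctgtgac
Hoxa2, chr6:52164832-52165081, minus strand: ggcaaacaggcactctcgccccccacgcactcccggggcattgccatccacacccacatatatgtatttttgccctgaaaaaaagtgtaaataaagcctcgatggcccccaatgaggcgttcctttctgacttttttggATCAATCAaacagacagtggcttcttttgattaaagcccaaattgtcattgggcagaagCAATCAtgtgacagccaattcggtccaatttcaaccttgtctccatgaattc
Hoxd4, chr2:74721728-74721977, plus strand: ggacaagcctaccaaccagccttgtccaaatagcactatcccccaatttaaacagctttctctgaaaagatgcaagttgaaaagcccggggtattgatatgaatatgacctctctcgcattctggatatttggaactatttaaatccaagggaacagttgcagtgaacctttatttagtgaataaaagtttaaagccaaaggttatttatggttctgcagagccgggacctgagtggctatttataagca
Hoxd11 start 1, chr2:74679308-74679557, plus strand: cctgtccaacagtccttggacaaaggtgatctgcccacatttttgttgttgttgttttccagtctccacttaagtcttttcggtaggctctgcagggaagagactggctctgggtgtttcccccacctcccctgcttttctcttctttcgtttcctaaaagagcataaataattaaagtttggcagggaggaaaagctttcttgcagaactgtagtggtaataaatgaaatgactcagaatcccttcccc
Hoxd11 start 2, chr2:74682073-74682322, plus strand: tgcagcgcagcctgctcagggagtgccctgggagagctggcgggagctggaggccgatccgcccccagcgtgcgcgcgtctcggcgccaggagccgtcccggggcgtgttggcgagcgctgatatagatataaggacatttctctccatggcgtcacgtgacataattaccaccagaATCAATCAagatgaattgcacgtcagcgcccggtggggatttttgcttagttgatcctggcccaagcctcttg
Hoxd9, chr2:74697513-74697762, plus strand: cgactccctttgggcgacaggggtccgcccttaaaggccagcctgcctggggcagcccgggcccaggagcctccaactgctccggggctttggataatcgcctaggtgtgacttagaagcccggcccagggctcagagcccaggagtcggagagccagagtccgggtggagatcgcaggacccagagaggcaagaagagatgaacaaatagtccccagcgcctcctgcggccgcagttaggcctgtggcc

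The windows of Hoxd4, Hoxd9 and start 1 of Hoxd11 held neither motif. The Hoxb1 window held 2 copies of TGATTG, 199 and 173 bases before the start, and TGATGGAT 162 bases before it. Sequence upstream of Hoxb1 is known from transgenic mice to hold an element through which Hoxb1 and Pbx proteins maintain Hoxb1 transcription in the hindbrain. TGATNNAT was found in 4 of 24 Hox windows (16.7%), those of Hoxa2, Hoxb1, Hoxb8 and Hoxd11, and in 7.68% of all 32851 windows of this length. TGATTG was found in 4 of the Hox windows too, against 12.7% of all windows. AGGTCA, the half-site of retinoic acid receptors, was in 6 Hox windows (25%), those of Hoxb4, Hoxc4, Hoxd3, Hoxd4, Hoxd8 and Hoxd10, against 14.0% of all windows. TACANTGT, the core of the known Dmrt1 binding motif, was in 0 of the Hox windows, against 2.35% of all windows. A match of letters is a description and shows no binding.

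Hoxb was the cluster in which all measured genes had a difference above 0. These 10 differences had a median of 1.05 on the log2 scale and a range from 0.26 to 1.44. Over all rows 48.0% lay above 0 and the median was -0.02. None of the 38 Hox genes had an adjusted p under 0.05 in the limma fit to the whole table, where 0.0312% of rows did (0.0273% higher and 0.0039% lower). At an unadjusted limma p of 0.05, 12 Hox genes were higher (4.41% of all rows were) and 1 was lower (5.1% of all rows were), and 7 of the 12 higher genes were in Hoxb. The plot of differences shows the cluster medians beside the single genes.

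**Figure D1:**
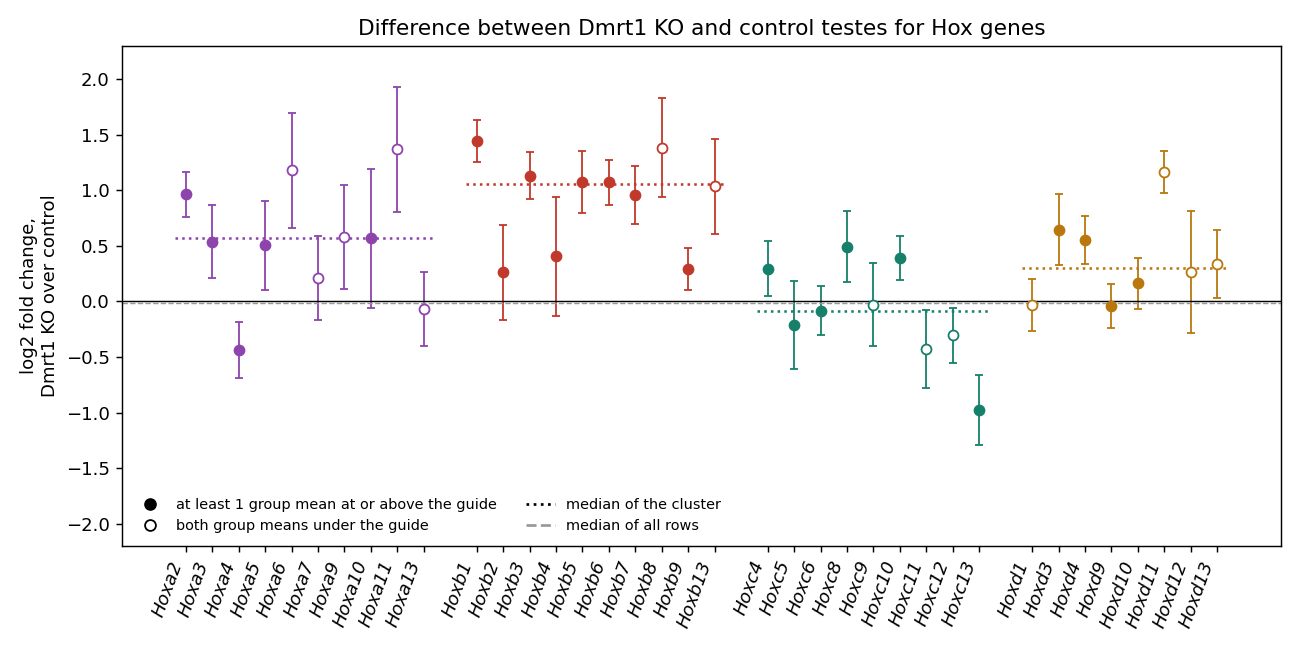
Log2 fold change of Dmrt1 KO over control (y axis) for single Hox genes ordered by cluster and number (x axis), with limma's SE as bars, open points where both group means lie under the background guide, and dotted lines at cluster medians. All 10 Hoxb points lie above 0, with a cluster median of 1.05, while other clusters have points on both sides of 0.

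Hoxb1 had the smallest p of all Hox genes and ranked 15 among all rows. It is the gene that gives a hindbrain segment its identity. Its level was 9.49, 9.34 and 9.63 in Dmrt1 KO replicates 1, 2 and 3, against 8.04, 7.96 and 8.12 in control replicates 1, 2 and 3. Every Dmrt1 KO array was thus above every control array, and the spread within each group was small (SD 0.15 in Dmrt1 KO and 0.08 in control arrays). The difference was 1.44 ± 0.19 (SE, n = 3 each), or 2.72-fold, with a limma adjusted p of 0.0830. It was the 1 Hox gene among the 0.101% of rows that were higher at an adjusted p of 0.1. Within the arrays whose numbers begin alike, which pair control replicate 1 with Dmrt1 KO replicate 1 and control replicates 2 and 3 with Dmrt1 KO replicate 2, the Hoxb1 difference was 1.44 and 1.30. The limma adjusted p was 0.0457 with log2(value + 50), 0.0364 with trend and robust settings and 0.0270 with array weights, so its side of the threshold depends on the setting.

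The paralog Hoxd1, known for a role in pain-sensing neurons, had 5.63, 5.63 and 5.90 in Dmrt1 KO arrays and 5.52, 5.59 and 6.16 in control arrays. These groups overlapped, all values lay under the guide and the difference was -0.03 ± 0.24 (SE).

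Next along the cluster, Hoxb3, which acts in the hindbrain and pharyngeal arches, was higher in every Dmrt1 KO array. Its level was 8.80, 8.95 and 9.003 in Dmrt1 KO arrays and 8.05, 7.52 and 7.79 in control arrays, a difference of 1.13 ± 0.21 (SE, 2.19-fold, limma adjusted p = 0.185). Hoxb2, which also patterns the hindbrain, had 8.08, 8.32 and 6.70 in Dmrt1 KO arrays and 7.68, 7.02 and 7.62 in control arrays. Its first 2 Dmrt1 KO arrays lay above all controls while the third lay below them all, which left a difference of 0.26 ± 0.43 (SE).

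Among the central Hoxb genes, Hoxb5, Hoxb6 and Hoxb7 had a separation like that of Hoxb3. Hoxb5, expressed in trunk and gut, had 8.13, 8.42 and 7.92 in Dmrt1 KO arrays and 7.56, 7.03 and 6.66 in control arrays (difference 1.08 ± 0.28, SE). Hoxb6, of trunk mesoderm and limb, had 7.94, 7.53 and 7.60 in Dmrt1 KO arrays and 6.73, 6.58 and 6.54 in control arrays (1.07 ± 0.20). Hoxb7, a gene of the trunk that is also active in kidney duct epithelium, had 8.79, 9.55 and 8.73 in Dmrt1 KO arrays and 8.09, 8.15 and 7.96 in control arrays (0.96 ± 0.26). None of these groups overlapped, and the limma adjusted p was 0.292 for Hoxb5, 0.185 for Hoxb6 and 0.314 for Hoxb7. The control means of Hoxb5 and Hoxb6 lay under the guide, and with log2(value + 50) their differences were 0.85 and 0.79.

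Other Hoxb genes were less even between arrays. Hoxb4, known for its effect on blood stem cells, had 8.80 and 9.18 in Dmrt1 KO replicates 1 and 2 but 6.95 in Dmrt1 KO replicate 3, against 8.12, 7.51 and 8.09 in control arrays. Hoxb8, with 6.53, 6.63 and 5.33 in Dmrt1 KO arrays and 5.53, 4.62 and 4.19 in control arrays, and Hoxb13, a gene of prostate and tail, with 6.55, 6.39 and 4.97 in Dmrt1 KO arrays and 5.26, 4.52 and 5.02 in control arrays, had means under the guide in both groups. In each of these 3 genes the third Dmrt1 KO array lay within or below the control range. Hoxb9, by contrast, was even, with 11.23, 11.43 and 11.19 in Dmrt1 KO arrays and 11.02, 11.08 and 10.89 in control arrays. Its groups did not overlap, but the difference was only 0.29 ± 0.19 (SE, limma adjusted p = 0.688).

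In all, groups did not overlap in 12 Hox genes that were higher and 2 that were lower in Dmrt1 KO arrays, against 6.8% and 8.54% of all rows. Both no overlap and an unadjusted limma p under 0.05 were found in 9 higher Hox genes and 1 lower one, against 3.72% and 4.51% of all rows. Of the 12 without overlap, 6 were in Hoxb, 3 in Hoxa, 2 in Hoxd and 1 in Hoxc. Dmrt1 KO replicates 1 and 2 both lay above all controls in 24 of the 38 Hox genes, among them all 10 of Hoxb, where 13.8% of all rows did so. In the fit without Dmrt1 KO replicate 3, 19 Hox genes were higher at an unadjusted limma p of 0.05 (5.87% of all rows) and 1 lower (5.13% of all rows), with 9 of the 19 in Hoxb and 0 past an adjusted p of 0.05.

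**Figure D2:**
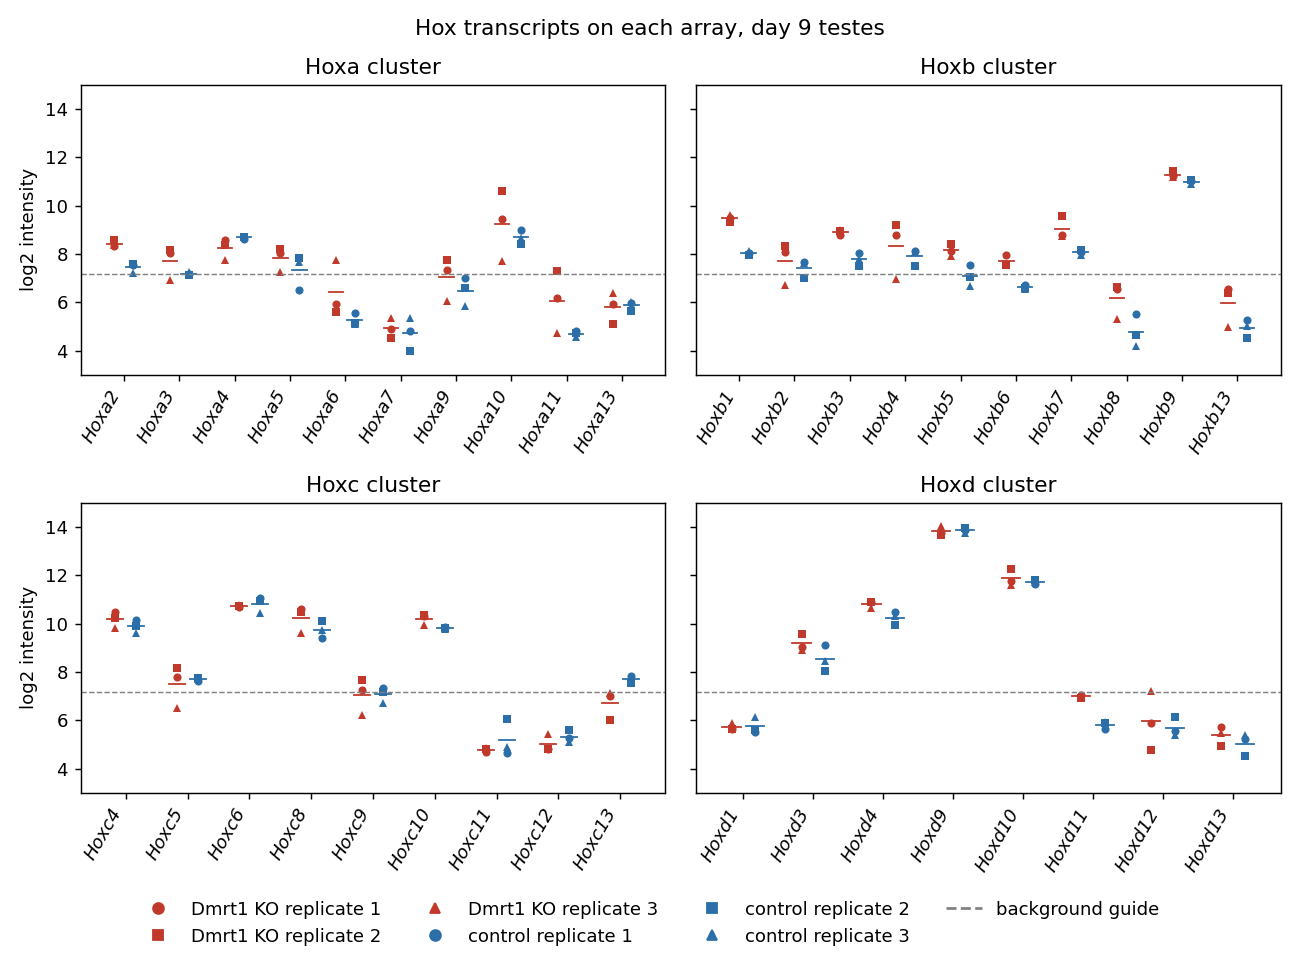
Log2 intensity (y axis) of single Hox genes (x axis) on each of 6 arrays, with Dmrt1 KO points left of control points, short lines at group means and a dashed line at the background guide of 7.19. Hoxb1, Hoxb3, Hoxb5, Hoxb6 and Hoxb7 have no overlap between groups, while Hoxd9 and Hoxc6 overlap.

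In Hoxa 9 of 11 differences were above 0, with a median of 0.57, which was 0.86 without Dmrt1 KO replicate 3 and 0.31 without Dmrt1 KO replicate 2. Hoxa2, the gene that gives the second pharyngeal arch its identity, was the clearest. It had 8.33, 8.58 and 8.37 in Dmrt1 KO arrays and 7.56, 7.60 and 7.23 in control arrays, a difference of 0.97 ± 0.20 (SE, 1.95-fold, limma adjusted p = 0.209). These groups did not overlap, and the difference was 0.77 and 1.17 in the sets of arrays with like numbers. Hoxa4 went the other way, at 8.59, 8.39 and 7.75 in Dmrt1 KO arrays and 8.64, 8.69 and 8.72 in control arrays. Although its groups did not overlap, the difference of -0.44 ± 0.25 (SE, limma adjusted p = 0.641) was -0.19 without Dmrt1 KO replicate 3.

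The posterior Hoxa genes, known from the uterus, the epididymis and the limb, varied widely among the Dmrt1 KO arrays. Hoxa10 had 9.44, 10.60 and 7.71 in Dmrt1 KO arrays and 8.97, 8.41 and 8.66 in control arrays. Hoxa11, with both means under the guide, had 6.18, 7.31 and 4.72 in Dmrt1 KO arrays and 4.81, 4.74 and 4.54 in control arrays. Hoxa9, also under the guide in both means, had 7.34, 7.74 and 6.06 in Dmrt1 KO arrays and 6.999, 6.57 and 5.84 in control arrays. In all 3 the second Dmrt1 KO array was highest and the third lowest of its group. The Hoxa10 difference of 0.57 ± 0.63 (SE) was 1.33 without Dmrt1 KO replicate 3 and -0.11 without Dmrt1 KO replicate 2, so 1 array decides its sign. The Hoxa11 difference of 1.37 was 2.05 (limma adjusted p = 0.0733) without Dmrt1 KO replicate 3.

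Among the other Hoxa genes, Hoxa3, needed for thymus and parathyroid, had 8.04, 8.18 and 6.94 in Dmrt1 KO arrays and 7.18, 7.12 and 7.25 in control arrays, so the third array again fell below the controls. Hoxa5, a regulator of lung development, had 8.02, 8.22 and 7.27 in Dmrt1 KO arrays and 6.52, 7.83 and 7.65 in control arrays, with overlap. Hoxa6 had 5.94, 5.61 and 7.77 in Dmrt1 KO arrays and 5.55, 5.13 and 5.10 in control arrays. Here the third array was the high one, and the difference of 1.18 was 0.52 without it. Both group means of Hoxa6 lay under the guide. Hoxa7 and Hoxa13, a gene of digits and genital tubercle, were under the guide with differences of 0.21 ± 0.38 and -0.07 ± 0.33 (SE).

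In Hoxc 3 of 9 differences were above 0, with a median of -0.08. Its sign turns on single arrays, since 5 of 9 were above 0 without Dmrt1 KO replicate 3 (median 0.28) and without control replicate 1 (median 0.046). Hoxc13, a regulator of hair keratins, was the 1 Hox gene lower at an unadjusted limma p of 0.05. It had 7.01, 6.02 and 7.15 in Dmrt1 KO arrays and 7.85, 7.54 and 7.72 in control arrays, a difference of -0.98 ± 0.31 (SE, limma adjusted p = 0.393). Its groups did not overlap, all Dmrt1 KO values lay under the guide, and with log2(value + 50) the difference was -0.71. Hoxc10, of the lumbar region, was higher in each Dmrt1 KO array, with 10.32, 10.38 and 9.94 in Dmrt1 KO arrays and 9.86, 9.82 and 9.79 in control arrays. That separation was small (0.39 ± 0.20, SE, limma adjusted p = 0.598).

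The thoracic gene Hoxc6 had 10.69, 10.72 and 10.78 in Dmrt1 KO arrays and 11.07, 10.93 and 10.44 in control arrays. Hoxc4, which acts in the neck region and in B cells, had 10.48, 10.25 and 9.84 in Dmrt1 KO arrays and 10.16, 9.92 and 9.61 in control arrays. Both overlapped, with differences of -0.08 ± 0.22 and 0.29 ± 0.25 (SE). Hoxc8, another thoracic gene, differed by 0.49 ± 0.32 with overlap. Hoxc9, with both group means under the guide, differed by -0.03 ± 0.38. Hoxc5 had 7.79, 8.18 and 6.52 in Dmrt1 KO arrays and 7.64, 7.76 and 7.73 in control arrays, and its difference of -0.21 was 0.28 without Dmrt1 KO replicate 3. Hoxc11 had 4.67, 4.80 and 4.86 in Dmrt1 KO arrays and 4.66, 6.04 and 4.91 in control arrays, and Hoxc12 had 4.82, 4.79 and 5.43 in Dmrt1 KO arrays and 5.28, 5.58 and 5.10 in control arrays. Both overlapped between groups, and all their values lay under the guide.

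Hoxd genes had 6 of 8 differences above 0 and a median of 0.30. Hoxd9, known from limb, axial skeleton and reproductive ducts, had 13.77, 13.67 and 14.04 in Dmrt1 KO arrays and 13.87, 13.96 and 13.77 in control arrays. Hoxd10, of lumbar motor neurons and limb, had 11.79, 12.27 and 11.59 in Dmrt1 KO arrays and 11.64, 11.80 and 11.73 in control arrays. Groups overlapped in both, with differences of -0.04 ± 0.20 and 0.16 ± 0.23 (SE). Hoxd4, active in hindbrain and neck vertebrae, had 10.90, 10.89 and 10.65 in Dmrt1 KO arrays and 10.47, 9.97 and 10.33 in control arrays. Every Dmrt1 KO array lay above every control, by 0.56 ± 0.21 (SE, limma adjusted p = 0.479).

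Hoxd11, which shapes the forearm and kidney together with Hoxa11, was close to the guide and well separated. It had 7.06, 6.93 and 6.97 in Dmrt1 KO arrays and 5.66, 5.88 and 5.93 in control arrays, so the third array did not stand apart here. The difference was 1.16 ± 0.19 (SE, limma adjusted p = 0.144), or 0.73 with log2(value + 50), with both group means under the guide. Hoxd3 differed by 0.65 ± 0.32 with overlap between groups. Hoxd12 and Hoxd13, the genes of the digits, were under the guide and gave 0.27 ± 0.55 and 0.34 ± 0.31 (SE), and that of Hoxd12 was -0.35 without Dmrt1 KO replicate 3.

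By position, 7 of 8 anterior genes (numbers 1 to 3), 11 of 14 central genes (4 to 8) and 10 of 16 posterior genes (9 to 13) had a difference above 0, with medians of 0.71, 0.50 and 0.28. More posterior genes were dim: both group means lay under the guide in 2 anterior, 3 central and 10 posterior genes. Across genes of 1 cluster, which share the 6 arrays and are not independent, Spearman's rho between number and difference was -0.07 in Hoxa (11 genes), -0.19 in Hoxb (10), -0.57 in Hoxc (9) and 0.17 in Hoxd (8). All measured paralogs had a difference above 0 in groups 2, 3, 7, 8 and 10, and the other groups were mixed. In group 6, Hoxb6 and Hoxa6 had differences above 1 and Hoxc6 one of -0.08, and in group 13 Hoxb13 had 1.04 and Hoxc13 -0.98. Of these, Hoxa6 and Hoxb13 had both group means under the guide. Whether clusters or positions differ from each other was not tested.

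The shift of each cluster was also read on single arrays, as the median over its genes of the difference from the control mean. For Hoxb it was 1.03, 1.29 and 0.60 in Dmrt1 KO replicates 1, 2 and 3 and 0.23, -0.12 and -0.03 in control replicates 1, 2 and 3. For Hoxa it was 0.75, 0.89 and 0.02 in Dmrt1 KO arrays and 0.09, -0.06 and 0.04 in control arrays. Thus Hoxb was up on all 3 Dmrt1 KO arrays, and Hoxa on only the first 2. For Hoxd the shift was 0.35, 0.23 and 0.39 in Dmrt1 KO arrays and -0.04, -0.05 and 0.04 in control arrays, and for Hoxc 0.09, 0.36 and -0.12 in Dmrt1 KO arrays and 0.04, 0.11 and -0.22 in control arrays. In the 2 sets of arrays with like numbers the median Hoxb difference was 0.73 and 1.34.

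**Figure D3:**
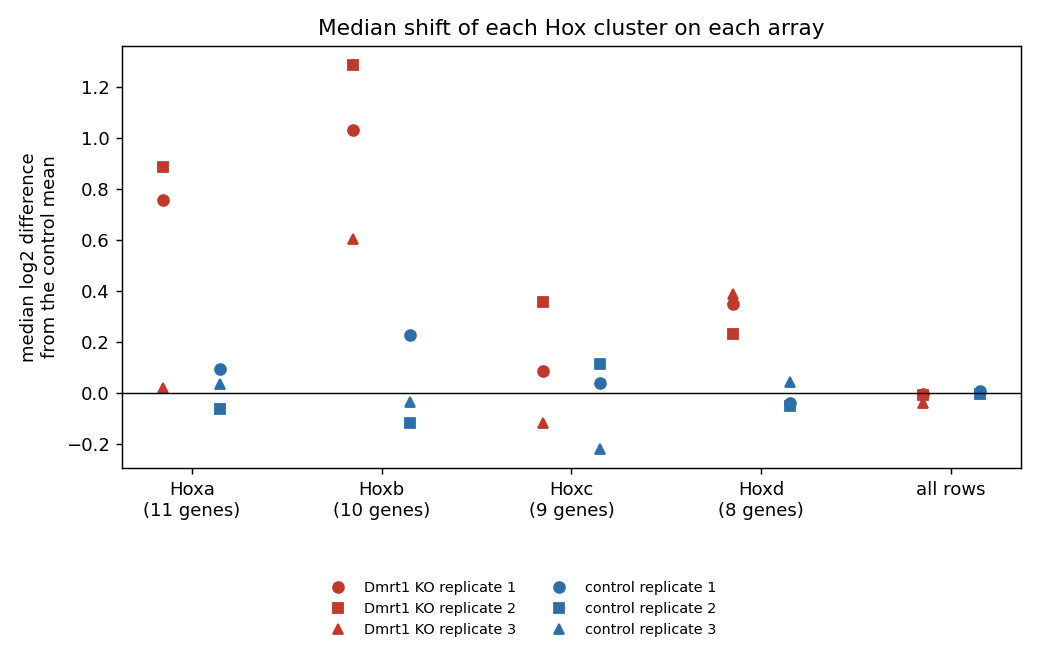
Median log2 difference from the control mean (y axis) of each Hox cluster and of all rows (x axis), with Dmrt1 KO arrays left of control arrays and a marker shape for each replicate. Hoxb is at 1.03, 1.29 and 0.60 on the Dmrt1 KO arrays and at 0.23 or lower on the control arrays.

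Dmrt1 KO replicate 3 was more than 1 below the mean of the other 2 Dmrt1 KO arrays in 10 Hox genes (26.3%, against 5.95% of all rows) and more than 1 above it in 2 (5.26%, against 7.96% of all rows). The 10, picked out after their values were seen, were Hoxa3, Hoxa9, Hoxa10, Hoxa11, Hoxb2, Hoxb4, Hoxb8, Hoxb13, Hoxc5 and Hoxc9. Since that array is low in them by choice, leaving it out must raise their differences. Without that array the difference was 0.93 for Hoxa3, 1.07 for Hoxa9, 0.76 for Hoxb2, 1.08 for Hoxb4, 1.80 for Hoxb8, 1.54 for Hoxb13 and 0.38 for Hoxc9, against 0.54, 0.58, 0.26, 0.40, 1.38, 1.04 and -0.03 with it. Hoxa5 was then at 0.79 against 0.50, Hoxc4 at 0.47 against 0.29, Hoxc8 at 0.80 against 0.49 and Hoxd10 at 0.31 against 0.16. Markers of epididymis, rete and mesonephric duct epithelium were read beside these genes. The epididymal secretory protein gene Crisp1 had 9.73, 10.96 and 4.46 in Dmrt1 KO arrays and 9.70, 4.11 and 6.49 in control arrays. Among Dmrt1 KO arrays it was lowest on replicate 3, the array that was lowest of its group in 42.6% of all rows. The 10 genes were picked for being low there, so their likeness to Crisp1 on that array was fixed by the choice. On replicate 1 Crisp1 was alike in both groups. Whether the Hox differences are linked to duct epithelium was not tested.

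Of the 12 duct epithelium markers, all measured, 10 had a difference above 0, with a median of 0.73. At an unadjusted limma p of 0.05, 5 were higher and 1 lower, against 4.41% and 5.1% of all rows. The summed intensity of the 12 was 6059 to 10949 in Dmrt1 KO arrays against 2792 to 4933 in control arrays. In such a sum bright genes, here Pax8 and Krt18, weigh most, so it does not show that the 12 rose together. Adam7, Lcn5, Lcn8, Rnase10, Krt8 and Lhx1 of this list were under the guide. The keratin gene Krt18 had 10.53, 10.99 and 10.02 in Dmrt1 KO arrays and 9.26, 8.43 and 8.48 in control arrays, and the kidney and duct cadherin gene Cdh16 had 8.64, 9.77 and 8.38 in Dmrt1 KO arrays and 7.73, 7.01 and 6.91 in control arrays. Pax8, a transcription factor gene of mesonephric ducts, had 12.01, 11.76 and 11.79 in Dmrt1 KO arrays and 10.96, 10.33 and 10.84 in control arrays. All 3 were thus higher on every Dmrt1 KO array, the third included. They were the only 3 of the 12 that were higher without overlap. Against them, 1 other marker of the list was lower without overlap, and the lowest difference in the list was -1.12.

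With the Crisp1 level as a covariate the median difference was 0.91 in Hoxb and 0.34 in Hoxa. Hoxb1 was then at 1.47, Hoxb3 at 1.09 and Hoxd11 at 1.19, against 1.44, 1.13 and 1.16 without it, whereas Hoxb4 was at 0.00 against 0.40 and Hoxa10 at 0.11 against 0.57. Hoxb4 and Hoxa10 were picked as low on Dmrt1 KO replicate 3, where Crisp1 was low too, so this contrast follows in part from the choice. Unlike Krt18, Pax8 and Cdh16, Crisp1 was not higher on every Dmrt1 KO array. The covariate therefore does not stand for duct epithelium as a whole. Summed Leydig cell markers were 108200 to 123708 in Dmrt1 KO arrays against 75247 to 96958 in control arrays, and endothelial markers 16325 to 17787 in Dmrt1 KO arrays against 11899 to 15541 in control arrays. Macrophage and leukocyte markers summed to 7618 to 8101 in Dmrt1 KO arrays against 9385 to 10792 in control arrays. Myoid and smooth muscle markers summed to 21122 to 27420 in Dmrt1 KO arrays and 22376 to 27757 in control arrays. The part of these other cell types in the Hox differences was not tested.

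**Figure D4:**
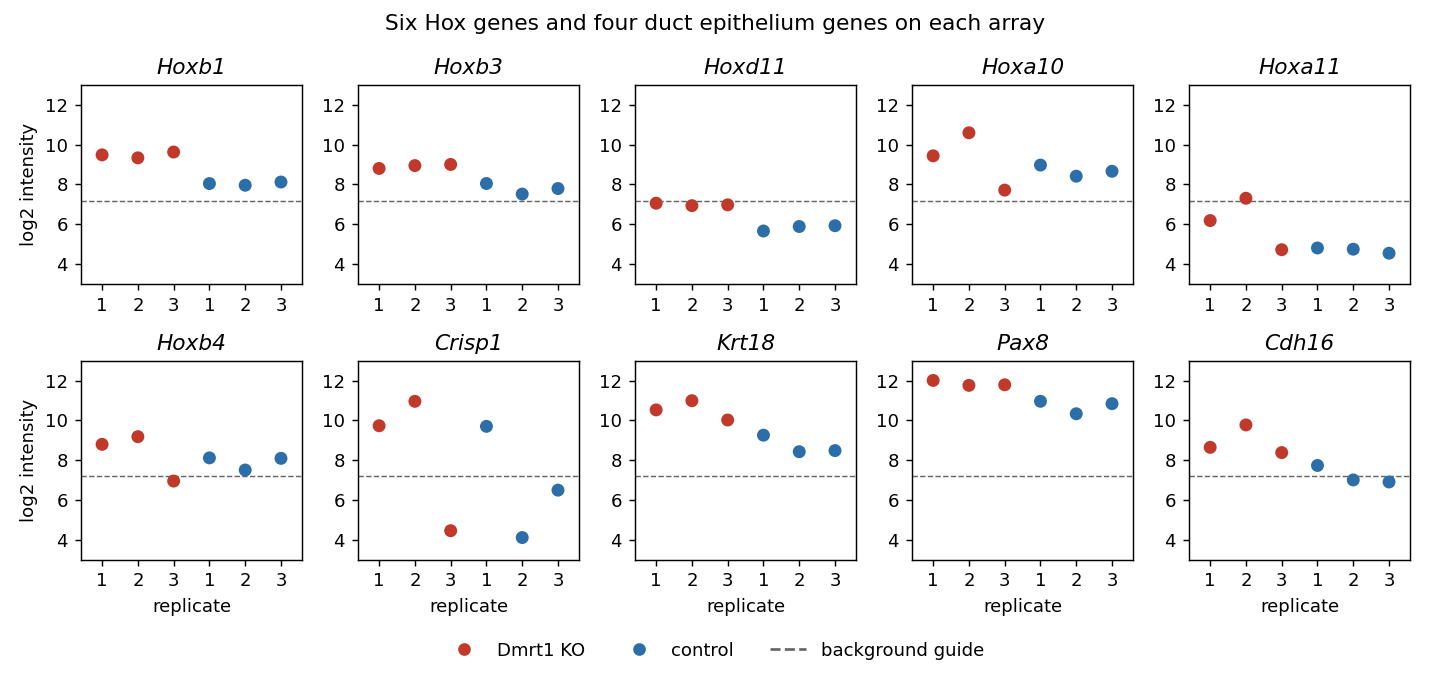
Log2 intensity (y axis) on 3 Dmrt1 KO and 3 control arrays (x axis, replicate) of 6 Hox genes and of Crisp1, Krt18, Pax8 and Cdh16, with a dashed line at the background guide. Hoxb1, Hoxb3 and Hoxd11 are level among the Dmrt1 KO arrays, while Hoxa10, Hoxa11, Hoxb4 and Crisp1 are low on Dmrt1 KO replicate 3.

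The 3 nearest measured genes on either side of Hoxa, Hoxb and Hoxd had a median difference closer to 0 than the cluster. For Hoxc, with a median of -0.08, this was not so. Over the 24 flanking genes of all clusters the median difference was 0.04, with a range from -0.61 to 0.42, and 0 had an unadjusted limma p under 0.05. They were brighter as a set: both group means lay under the guide in 4 of them, against 15 of 38 Hox genes. Dim rows vary more, with a median Dmrt1 KO SD of 0.42 under the guide and 0.26 at or above it. Beside Hoxb the 6 neighbours had a median of -0.19, with Skap1, an adaptor gene of T cells next to Hoxb1, at -0.11 ± 0.25 (SE) and Ttll6, a tubulin-modifying enzyme gene beyond Hoxb13, at 0.15 ± 0.30, both under the guide. Snx11, a sorting nexin gene, had the lowest value of them, -0.61 ± 0.36. Beside Hoxa the median was -0.01, beside Hoxc 0.08 and beside Hoxd 0.12. Evx1 and Evx2, homeobox genes that adjoin Hoxa13 and Hoxd13, were under the guide, with differences of 0.30 ± 0.40 and 0.42 ± 0.27.

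Among genes that act with or upstream of Hox genes, 0 passed a limma adjusted p of 0.05 in any list. Of 9 TALE cofactors 2 were higher at an unadjusted limma p of 0.05 and 0 lower, against 4.41% and 5.1% of all rows. Meis2, a partner of Hox and Pbx proteins, had 12.21, 12.26 and 11.69 in Dmrt1 KO arrays and 11.57, 11.41 and 10.99 in control arrays, without overlap (0.73 ± 0.25, SE, limma adjusted p = 0.415). Meis1 was under the guide (0.62 ± 0.27), and Pbx3 gave -0.41 ± 0.37. The 6 Cdx and ParaHox genes, relatives of the Hox genes that help to switch them on in the tail of the embryo, were all under the guide in both groups, with 0 at an unadjusted p of 0.05.

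Of 20 Polycomb genes 7 had a difference above 0 and the median was -0.02. Phc3, a subunit of Polycomb repressive complex 1, had 7.99, 7.87 and 7.46 in Dmrt1 KO arrays and 8.80, 8.75 and 8.84 in control arrays, without overlap. That difference, -1.02 ± 0.21 (SE, limma adjusted p = 0.205), was the 1 in the list with an unadjusted p under 0.05. Suz12, a core subunit of complex 2, gave -0.34 ± 0.21 and Rnf2, the ubiquitin ligase of complex 1, 0.41 ± 0.26. Of 9 measured Trithorax group genes and other activators 3 lay above 0 with a median of -0.10 and 0 at an unadjusted p of 0.05, among them Wdr5 (0.26 ± 0.19), Men1 (-0.28 ± 0.24) and Kdm6b (-0.32 ± 0.25).

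Of 11 measured upstream regulators 3 lay above 0, with a median of -0.13. Gbx2, a homeobox gene of the hindbrain boundary, was the 1 gene with an unadjusted p under 0.05 and was higher without overlap (0.77 ± 0.29, SE, limma adjusted p = 0.463). Nr6a1, an orphan receptor that acts on trunk Hox genes, and the retinoid X receptor gene Rxrb were lower without overlap, at -0.56 ± 0.27 and -0.49 ± 0.21, with limma adjusted p of 0.558 and 0.530. Hox-like genes outside the clusters had 13 of 18 differences above 0 and a median of 0.36. At an unadjusted limma p of 0.05, 4 were higher and 0 lower, against 4.41% and 5.1% of all rows. Gbx2 is in this list too and is 1 of these 4, and Evx1 and Evx2 of this list are also flanking genes, so the lists are not separate. Both group means lay under the guide in 10 of the 18. Mnx1, a homeobox gene of motor neurons and pancreas, had 7.53, 7.31 and 7.11 in Dmrt1 KO arrays and 5.04, 5.38 and 6.07 in control arrays. Its groups did not overlap, though its control mean lay under the guide. The difference was 1.81 ± 0.29 (SE, limma adjusted p = 0.144), or 1.12 with log2(value + 50). En2, a midbrain homeobox gene under the guide, gave 0.74 ± 0.31.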

How the data were processed

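RNA of day 9 testes was isolated, checked on a Bioanalyzer, reverse transcribed, labelled with Cy3 and hybridised to NimbleGen mouse arrays, per the labels' protocols. The authors deposited 1 linear intensity per RefSeq accession and array, and RMA is the tool named per the submitters' processing notes, with version, background correction and probe annotation not given in the sources used here. RMA usually gives log2 values, but these ran from 8.81 to 65190, so log2 was taken. Accessions were matched without version to RefSeq symbols of GRCm38.p6, which named 17780 of 25631 rows (69.4%). All per-sample columns were used.

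The fit over 6 arrays used lmFit and eBayes of limma 3.58.1 under R 4.3.3 on all rows, Dmrt1 KO minus control, with no covariate and no filter, Benjamini-Hochberg adjustment over all rows and a threshold of 0.05, and the fit was tested on simulated data. An exact permutation test of 3 against 3 cannot go below p = 0.1 and was not used. Replicate numbers follow deposition order and pair nothing. P-values measure the spread between these samples, which may be technical, and the number of arrays limits the precision. Members, lists and tests were chosen with earlier results of these data known, among them the difference in Hoxb1. Values per array follow a rule: genes without overlap at an unadjusted p under 0.05, the 6 smallest p in each direction, the 3 brightest rows of a cluster and number 1 genes. One Hox gene counted in the totals is not reported here. Values per array of other Hox genes were added after they were seen. Of each pathway list up to 3 genes with the smallest p are named. Tables and plots were made in Python 3.11.15 and matplotlib 3.10.9.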

Additional observations from a re-analysis of the deposited data

How the results depend on the processing

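Over all rows 7 were called higher and 1 lower. These counts were 45 and 4 with array number group as a block, 48 and 12 with array weights, 53 and 28 with trend and robust settings, 35 and 17 when the dimmest 50% of rows were dropped, 26 and 8 at an adjusted p of 0.1, and 1130 and 1306 at an unadjusted p of 0.05. With log2(value + 50) 11 were higher. With Crisp1 as a covariate and with quantile normalization 0 were lower. Leaving out 1 array at a time gave 0 to 44 higher and 0 to 3 lower.

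Against 0 Hox genes in the reported fit, 1 was called with array weights, trend and robust settings, log2(value + 50) or an adjusted p of 0.1, in each case Hoxb1, and 13 at an unadjusted p of 0.05. All 10 Hoxb differences lay above 0 under the other settings that kept 10 genes, but 8 of 10 did without Dmrt1 KO replicate 2 and 9 of 10 with the Crisp1 covariate, and 1 Hoxb gene was left when the dimmest rows were dropped. The Hoxc median was 0.31 with the block and 0.16 with array weights, and that of Hoxa 0.92 with the block. No other array shares the number group of Dmrt1 KO replicate 3. The blocked fit therefore took its differences from the other arrays only and is not separate from leaving that array out. Without Dmrt1 KO replicate 3 the median was 0.28 in Hoxc and 0.86 in Hoxa.

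Of the 22 genes named by rule 6 changed sign somewhere. Hoxc5 was 0.31 with the block and 0.16 with array weights, and with the Crisp1 covariate Hoxd1 was 0.024 and Hoxd9 0.022. Leaving out 1 array gave -0.11 to 1.33 for Hoxa10, -0.55 to 0.28 for Hoxc5, -0.27 to 0.046 for Hoxc6, -0.15 to 0.17 for Hoxd1, -0.15 to 0.037 for Hoxd9 and -0.029 to 0.31 for Hoxd10. The cause was not tested. The labels give no replicate numbers, so that the block by array number, above, was the one blocked fit. Signal near background limits the 15 Hox genes with both group means under the guide, and also the 4 with 1 group mean under it.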
